A study of Drosophila melanogaster with 4 samples.

Results

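The regions described here are places off chromosome X where chromatin immunoprecipitation followed by sequencing (ChIP-seq) called an Ibf protein without the full set of partners. Peaks of the 3 deposited lists, for CP190, CG8436 and CG9740, were merged into 2233 regions wherever they shared at least 1 bp. Of the 1889 regions that did not lie on X, 702 held a peak of CG8436 or CG9740, and 238 of these lacked at least 1 of the 3 lists (12.6% of the regions off X and 33.9% of those with an Ibf peak). Members were chosen by which lists had called a peak in them and by lying off X, and no other measured value was used. Regions called in all 3 lists are named complete below. In the RefSeq gene table the symbol of CG8436 is Ibf1 and that of CG9740 is Ibf2, and these symbols are used below. The cells were Drosophila melanogaster S2 cells, a cultured line derived from late embryos that resembles blood cells, with no treatment or change of genotype named in the labels. They gave 1 library for CP190 (rabbit polyclonal antibody), 1 for Ibf1 and 1 for Ibf2 (rat polyclonal antibodies), and 1 Input library of genomic DNA against which peaks were called. No library was repeated, so no value has a replicate error. Intervals below are 95% exact (Clopper-Pearson) intervals over regions and cover counting error only. The lists give positions without heights or read totals, so depth is unknown. Absence from a list means that no peak was called there, and not that the protein was absent.

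Insulators are DNA elements that keep enhancers from acting on the wrong promoters and separate one chromatin domain from the next. CP190 is a zinc finger protein with a BTB domain that is shared by many Drosophila insulators, where it is brought to chromatin by proteins that bind DNA themselves. Ibf1 and Ibf2 (insulator binding factors) bind DNA, associate with each other and with CP190, and are needed for CP190 to occupy part of its sites. A region that carries some of these proteins and not the others is therefore of interest for how far the set can come apart.

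Most members belonged to 3 subclasses of similar size. CP190 with Ibf2 but no Ibf1 was called at 83 regions (34.9% of members, 28.8 to 41.3), Ibf1 with Ibf2 but no CP190 at 81 (34.0%, 28.0 to 40.4), and Ibf2 alone at 69 (29.0%, 23.3 to 35.2). A further 5 regions had Ibf1 alone, and CP190 with Ibf1 but no Ibf2 was called at 0 of 238 (exact upper limit 1.54%). Ibf2 was thus the list present in 233 of the 238 members. Over all 2233 merged regions, CP190 was called at 92.5%, Ibf2 at 35.1% and Ibf1 at 27.4%. These class sizes follow from the rule by which regions were chosen and were not tested. The members held 404 peaks, of which 233 were Ibf2 peaks, 88 Ibf1 peaks and 83 CP190 peaks, and covered 57805 bp. Only 2 members held more than 1 peak of a list, both with 2 Ibf1 peaks under a single Ibf2 peak, on 3L at 18839442 to 18839973 and on 3R at 5084027 to 5085102. All positions are printed as deposited, in the dm3 build. An annotation and sequence of that build were not used here, so genes and bases at these places are not given.

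The subclasses were spread over all autosome arms. Regions with CP190 and Ibf2 numbered 18 on 2L, 17 on 2R, 18 on 3L, 24 on 3R and 2 on chromosome 4. Those with both Ibf proteins and no CP190 numbered 20, 23, 12, 18 and 1 on the same arms, and Ibf2-alone regions numbered 14, 20, 12, 19 and 3. As a share of the regions with any Ibf peak, members made up 37.4% on 2L (52 of 139), 37.2% on 2R (61 of 164), 27.6% on 3L (42 of 152) and 33.5% on 3R (61 of 182). The intervals of these 4 shares overlapped, from 20.7 to 35.5 on 3L at the low end to 29.4 to 46.0 on 2L at the high end.

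**Figure D1:**
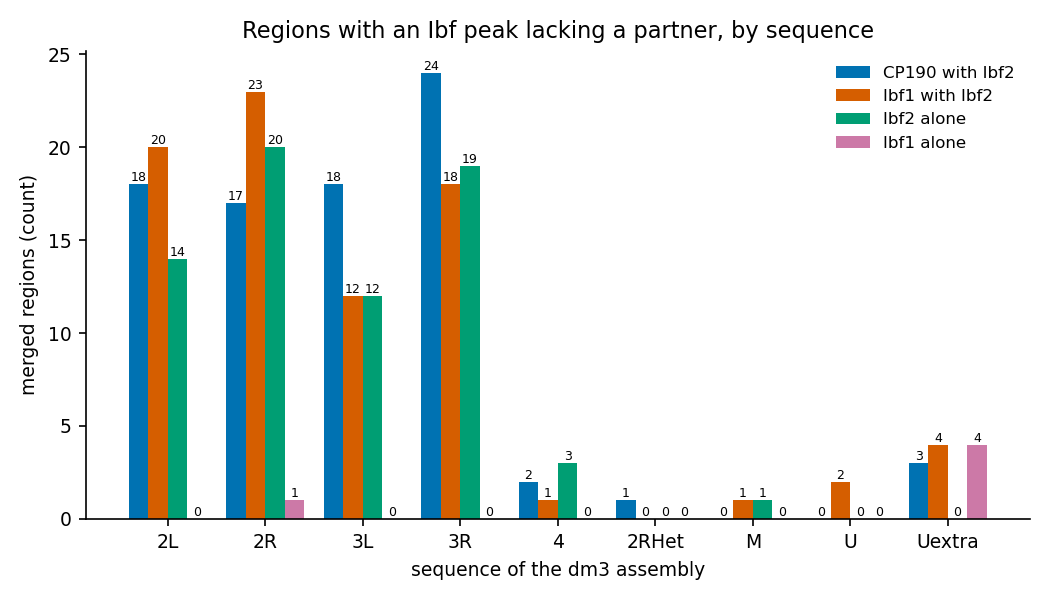
Number of merged regions (vertical axis) of each subclass on each sequence of the dm3 assembly where a member lay (horizontal axis), with chromosome X left out by the rule. The 4 large arms hold between 12 and 24 regions of each of the 3 main subclasses, while 4 of the 5 regions of Ibf1 alone lie in Uextra.

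Chromosome 4, a small and largely heterochromatic chromosome, held 6 members among 14 regions with an Ibf peak (42.9%, 17.7 to 71.1). It held 2.70% of the members on the autosome arms (6 of 222), against 0.934% of all regions there and 0.256% of CP190-alone regions (3 of 1170). The odds ratio of members to CP190 alone was 10.8 with an interval of 2.28 to 67.1 (two-sided Fisher's exact test, adjusted p = 0.00425 over 5 comparisons). Complete regions had a share of 1.86% (8 of 429), and no difference of members from them was resolved (odds ratio 1.46, interval 0.412 to 4.87, by Fisher's exact test, adjusted p = 0.828). The excess over CP190 alone therefore was not shown to be particular to regions lacking a partner. Between the subclasses, no difference in the chromosome 4 share was resolved (2 of 79 with CP190 and Ibf2, 1 of 74 with both Ibf proteins, 3 of 68 with Ibf2 alone, adjusted p = 0.828 or above in each Fisher's exact test). The widest of the 6 was an Ibf2-alone peak of 474 bp at 679781 to 680254. Another was a CP190 and Ibf2 region at 855613 to 855761, 370 bp from the Ibf1 peak of a region with all 3 proteins.

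Outside the assembled arms lay 16 of 238 members (6.72%), in the unplaced contigs named U and Uextra, the heterochromatic scaffold 2RHet and the mitochondrial genome. Of all regions off X, 3.60% lay outside the arms. The share was 1.43% for CP190 alone (17 of 1187), so that the odds ratio of members to CP190 alone was 4.95 with an interval of 2.30 to 10.6 (two-sided Fisher's exact test, adjusted p = 9.08e-05 over 5 comparisons). Complete regions had a share of 7.54% (35 of 464), and the odds ratio of members to them was 0.884, whose interval of 0.446 to 1.68 includes 1 (by Fisher's exact test, adjusted p = 0.760). Among the subclasses the counts were 4 of 83 for CP190 with Ibf2, 7 of 81 for both Ibf proteins and 1 of 69 for Ibf2 alone, and no pair was told apart (Fisher's exact test, adjusted p = 0.175 or above). Counts this small leave wide intervals, for example 0.786 to 294 for the odds ratio of both Ibf proteins to Ibf2 alone. These tests take regions as independent units and do not cover variation between libraries. Whether regions in U and Uextra repeat the same sequence was not examined.

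The mitochondrial genome carried only members. Ibf2 alone was called at 1777 to 1901 and both Ibf proteins at 3565 to 3640, where the Ibf1 peak spanned 55 bp and that of Ibf2 76 bp, while the CP190 list had 0 peaks there. Uextra held 4 of the 5 Ibf1-alone regions, with widths of 19 to 57 bp. The remaining 1 was a 15 bp peak on arm 2R (15587308 to 15587322), 243850 bp from the nearest Ibf2 peak and 27443 bp from the nearest CP190 peak. Mappability and copy number of these sequences were not available in the lists, and their part in the calls was not tested.

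The width of the Ibf2 peak differed with whether Ibf1 was called beside it more than with whether CP190 was. Without Ibf1, the Ibf2 peak had a median width of 105 bp (quartiles 65.5 to 170) where CP190 was called and 103 bp (52 to 164) where it was not. With Ibf1, the median was 236 bp (181 to 318) in members, which lack CP190, and 309 bp (251.8 to 374.2) in regions with all 3. The 95% interval of the median, from order statistics, was 83 to 139 bp for Ibf2 with CP190 and 68 to 130 bp for Ibf2 alone, which largely overlap. That for both Ibf proteins was 214 to 270 bp, clear of both and below the 299 to 319 bp of the regions with all 3. Width comes from the same calls that define the classes, so these values describe the lists and were not tested.

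**Figure D2:**
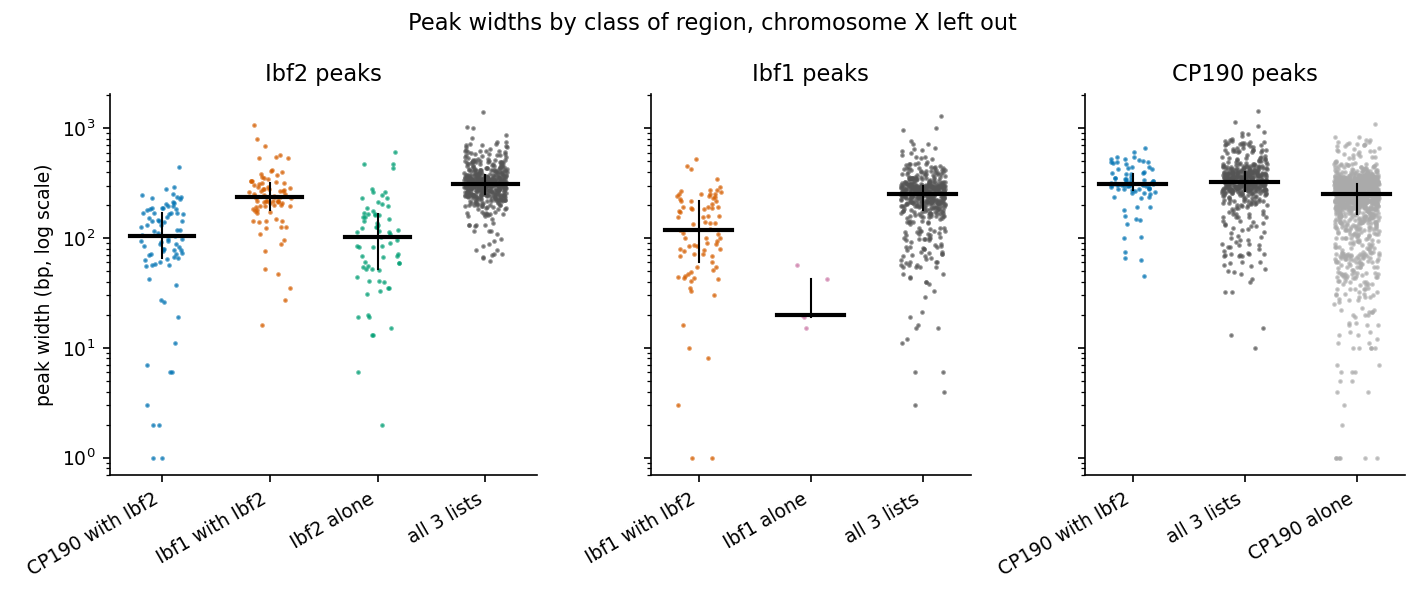
Width of each peak in bp (vertical log axis) by class of region (horizontal axis), in panels for Ibf2, Ibf1 and CP190 peaks; points are peaks, thick bars medians and thin lines quartiles. Ibf2 peaks without Ibf1 have medians of 105 and 103 bp, against 236 and 309 bp with Ibf1, and CP190 peaks with Ibf2 but no Ibf1 have a median of 311 bp, near the 324 bp of regions with all 3.

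On each of the 4 large arms, the median Ibf2 width among members was highest where Ibf1 was called. On 2L the median Ibf2 width was 84 bp with CP190 and 71.5 bp alone, but 223 bp with Ibf1. On 2R the values were 80, 113.5 and 293 bp in the same order, and on 3R they were 112, 144 and 254 bp. The subclasses came closest on 3L, where the median with CP190 was 178.5 bp over 18 regions, alone 87.5 bp over 12, and with Ibf1 196 bp over 12. The ranges of the subclasses overlapped on each of these arms.

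Some members had Ibf2 peaks as wide as those of complete regions. The lower quartile of Ibf2 width in regions with all 3 was 251.8 bp. This was reached by 3 of 83 Ibf2 peaks with CP190 (3.61%, 0.752 to 10.2), 36 of 81 with Ibf1 and no CP190 (44.4%, 33.4 to 55.9) and 7 of 69 that were alone (10.1%, 4.18 to 19.8). At the other end, Ibf2 peaks under 50 bp made up 14 of 83 (16.9%) with CP190 and 16 of 69 (23.2%) alone, against 4 of 81 (4.94%) with Ibf1 and 0 of 464 in complete regions. The narrow Ibf2 peaks are thus found mainly where Ibf1 was not called. Ibf1 peaks under 50 bp were found in 17 of 81 regions with both Ibf proteins and no CP190 (21.0%). In complete regions they numbered 20 of 464 (4.31%).

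CP190 peaks in members were broad. Those that overlapped an Ibf2 peak without Ibf1 had a median width of 311 bp (272.5 to 385), against 324 bp (265.5 to 395) in regions with all 3 and 251 bp (166 to 312) in regions of CP190 alone. The interval of the median was 301 to 328 bp, which overlaps the 313 to 338 bp of complete regions and lies above the 244 to 258 bp of CP190 alone. In these lists, the CP190 peaks of regions with CP190 and Ibf2 were thus about as wide as at complete sites. Their Ibf2 peaks were about as narrow as those of Ibf2 alone. A wider CP190 peak is more likely to share a base with an Ibf2 peak, so the rule itself bears on these widths. They were not tested. The ratio of Ibf2 to CP190 width had a median of 0.356 (0.204 to 0.564) in these members, compared with 0.963 (0.821 to 1.17) in complete regions.

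Ibf1 peaks in members were narrow relative to their Ibf2 partner. Where CP190 was missing, the Ibf1 peak had a median width of 119 bp (61 to 215, n = 81), against 249.5 bp (180 to 299, n = 464) in complete regions. The Ibf2 peak was a median of 1.67 times as wide as the Ibf1 peak (1.32 to 2.71, n = 79 regions with 1 peak of each), against 1.23 times (1.13 to 1.47, n = 459) in complete regions. Both Ibf peaks were thus narrower than at complete sites, the Ibf1 peak by more. These widths too come from the calls that define the classes and were not tested.

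**Figure D3:**
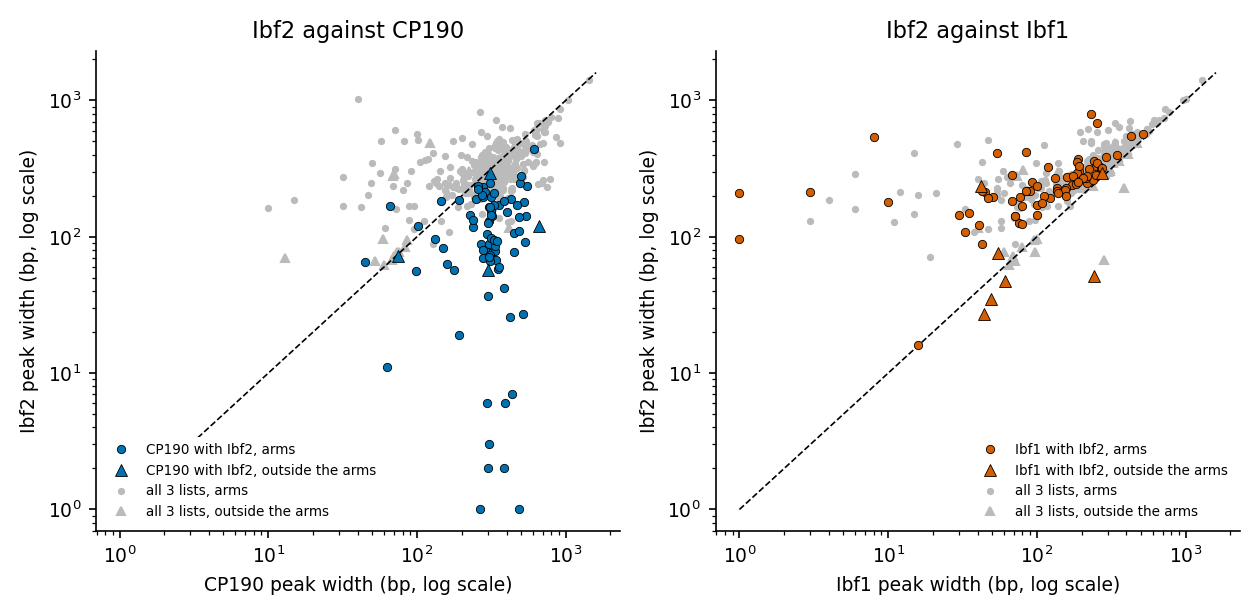
Width of the Ibf2 peak (vertical log axis, bp) against the width of the CP190 peak (left) or the Ibf1 peak (right, horizontal log axes, bp) in regions with 1 peak of each; coloured symbols are members, grey symbols regions with all 3 lists, triangles lie outside the assembled arms and the dashed line marks equal width. In 79 of 83 members on the left the CP190 peak is the wider, and on the right the Ibf1 peak is the wider in 0 of 72 members on the arms and 4 of 7 outside them.

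The median offset between the midpoints of the peaks present was larger in members than in complete regions. The midpoints of CP190 and Ibf2 peaks lay a median of 33 bp apart (12.5 to 52.8, n = 83), against 19.5 bp (9 to 39.5, n = 461) in complete regions. The Ibf2 peak lay wholly inside the CP190 peak in 71 of 83 members (85.5%, 76.1 to 92.3), compared with 175 of 461 complete regions (38.0%, 33.5 to 42.6). The midpoints of Ibf1 and Ibf2 peaks lay 13.5 bp apart (4.75 to 32.2, n = 79) in members and 8.5 bp (3.5 to 18, n = 459) in complete regions, and the Ibf1 peak was inside the Ibf2 peak in 73 of 79 members (92.4%, 84.2 to 97.2). Peaks of these members share at least 1 bp by the rule, which limits how far apart their midpoints can lie. Nesting depends on the widths given above. Neither is therefore a separate measure, and neither was tested.

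Outside the assembled arms, the Ibf1 peak was sometimes the wider of the Ibf pair. On the arms the Ibf1 peak was the wider in 0 of 72 regions with both Ibf proteins and no CP190 (exact upper limit 4.99%). Outside them it was the wider in 4 of 7 (57.1%, 18.4 to 90.1), for example in Uextra at 19603856 to 19604096, where Ibf1 spanned 241 bp and Ibf2 52 bp. Complete regions showed the same contrast, with 12 of 34 outside the arms (35.3%, 19.7 to 53.5) and 2 of 425 on them (0.471%, 0.0570 to 1.69). This contrast was noticed after the widths were seen and was not tested.

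The widest members of each subclass show how the calls differ. Among CP190 with Ibf2, the widest Ibf2 peak spanned 443 bp under a CP190 peak of 609 bp on 3R at 24127829 to 24128446, 242350 bp from the nearest Ibf1 peak. Next on the arms came 3L at 5862690 to 5863188, where the Ibf2 peak was 281 bp and the CP190 peak 499 bp. Its nearest Ibf1 peak was 96868 bp away, so in both the missing protein was called only at a distance.

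The widest region with both Ibf proteins and no CP190, on 3R from 5084027 to 5085102, held an Ibf2 peak of 1076 bp, with the nearest CP190 peak 43677 bp away. Of the 5 widest such regions, 4 lay 15317 to 64902 bp from a CP190 peak and 1 lay within 1 kb of one. In that one, an Ibf2 peak of 800 bp over an Ibf1 peak of 230 bp lay on 3R at 4895303 to 4896102, 998 bp from a CP190 peak. On 2L at 10866159 to 10866839 the Ibf2 peak was 681 bp and the Ibf1 peak 253 bp, and the nearest CP190 peak was 64902 bp away. A further such region, on 2L from 17384176 to 17384721, had an Ibf2 peak of 546 bp over one of 427 bp for Ibf1, with CP190 called 15317 bp away.

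Among Ibf2-alone regions, 2R at 6726285 to 6726889 had a peak of 605 bp, with CP190 called 18287 bp and Ibf1 112142 bp away. Arm 2R also had a peak of 471 bp (13771961 to 13772431) and 3L had 1 of 438 bp (12743923 to 12744360), which followed the 474 bp peak on chromosome 4. The fifth was 279 bp, so wide peaks of this subclass were few.

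The distance to the missing protein was read from the nearest peak of its list. On the autosome arms, the edge of the nearest Ibf1 peak lay a median of 38938 bp (19885 to 102052) from the 79 regions with CP190 and Ibf2, and within 1 kb of 2 of them. From the 74 regions with both Ibf proteins, the nearest CP190 peak lay a median of 16950 bp away (8196 to 37633) and within 1 kb of 4. From the 68 Ibf2-alone regions, the nearest CP190 peak lay 15171 bp away (4354 to 38893) and within 1 kb of 10, and the nearest Ibf1 peak 52287 bp away (17256 to 110546) and within 1 kb of 5. The share with a separate CP190 peak within 1 kb was thus 5.41% for both Ibf proteins and 14.7% for Ibf2 alone, against 4.83% of all regions on the arms. Peaks of 1 list were never closer than 300 bp, so a region that holds CP190 cannot have another CP190 peak right beside its own. With only CP190 peaks 300 bp to 1 kb away counted, chosen after the values were seen, the shares were 4.05% (3 of 74) and 10.3% (7 of 68). Over all regions on the arms that share was 4.56%. The share with a separate Ibf1 peak within 1 kb was 2.53% for CP190 with Ibf2 and 7.35% for Ibf2 alone, against 1.54% of all regions there. The median gap to a separate CP190 peak was 21007 bp for complete regions and 15596 bp for CP190-alone regions. No test of these gaps was made. CP190 peaks are more numerous than Ibf1 peaks (2067 and 618), and no distance was scaled to these numbers.

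**Figure D4:**
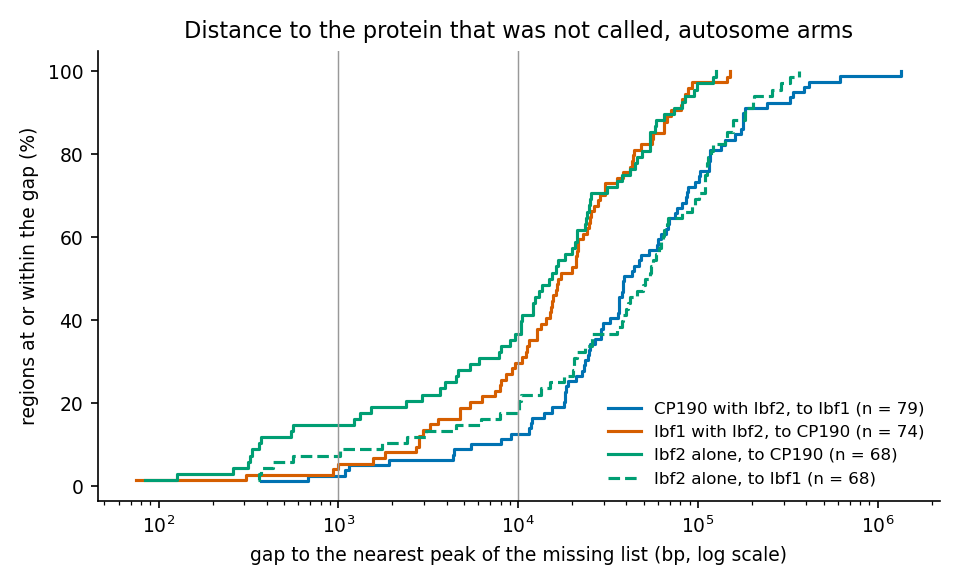
Cumulative percentage of regions on the autosome arms (vertical axis) whose nearest peak of a list they lack lies at or within a given gap in bp (horizontal log axis); grey lines mark 1 kb and 10 kb. The curve of Ibf2 alone to CP190 stands highest at 1 kb, where it reaches 14.7%, and the curve of CP190 with Ibf2 to Ibf1 reaches 2.53%.

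The closest misses were of several kinds. A region with both Ibf proteins on 3L at 16045229 to 16045626, with peaks of 348 bp (Ibf1) and 398 bp (Ibf2), began 75 bp past the end of a CP190-alone peak of 1100 bp. In contig set U, at 6833449 to 6833742, the gap to a CP190 peak of 96 bp was 39 bp. An Ibf2-alone region on 2L at 18119628 to 18119757 lay 84 bp from a CP190 peak of 55 bp. The 3 Ibf2-alone regions nearest to an Ibf1 peak flanked complete regions, as on 3R, where a 71 bp peak at 530491 to 530561 lay 357 bp from the Ibf1 peak of a region whose CP190, Ibf1 and Ibf2 peaks spanned 919, 725 and 859 bp.

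Just inside the rule were members that rested on an Ibf2 peak of 1 or 2 bp lying inside a CP190 peak. In CP190 with Ibf2, the Ibf2 peak was 1 bp wide at 3L 15547406 to 15547669 and at 3R 13846918 to 13847402. It was 2 bp wide at 2R 5196171 to 5196470 and at 3R 24497925 to 24498306. The CP190 peaks around them were 264, 485, 300 and 382 bp wide in that order. Just outside it were 4 complete regions off X in which a pair of peaks shared no base and was joined through the third peak, such as 2R at 13380496 to 13380991, where the CP190 peak of 129 bp and the Ibf1 peak of 15 bp were 319 bp apart and both overlapped an Ibf2 peak of 414 bp. When peaks up to 500 bp apart were joined, 82 of 83 regions with CP190 and Ibf2, 77 of 81 with both Ibf proteins and 60 of 69 with Ibf2 alone kept their class, and 1, 4 and 3 of them became complete.

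At the scale of 10 kb, no difference between members and other regions in the frequency of neighbours was resolved. Another merged region lay within 10 kb of 79 of 222 members on the arms (35.6%), against 35.5% of all regions there, 31.5% of complete regions (135 of 429) and 37.0% of CP190-alone regions (433 of 1170). The odds ratio was 1.20 (0.841 to 1.72) against complete regions and 0.940 (0.687 to 1.28) against CP190 alone, and none of the 5 comparisons passed the test (two-sided Fisher's exact test, adjusted p = 0.732 for each). By subclass the counts were 25 of 79 for CP190 with Ibf2, 26 of 74 for both Ibf proteins and 28 of 68 for Ibf2 alone. Both regions of a neighbouring pair were counted. The tests take these counts as independent although they are not, so the p-values and intervals are approximate.

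A separate CP190 peak, that is, one in another region, lay within 10 kb of 72 of 222 members (32.4%), against 33.0% of all regions on the arms. Regions that already held CP190 with Ibf2 had a second one in 25 of 79 cases (31.6%), regions with both Ibf proteins had one in 22 of 74 (29.7%) and Ibf2-alone regions in 25 of 68 (36.8%). The odds ratio of CP190 with Ibf2 to Ibf2 alone was 0.798 with an interval of 0.380 to 1.67 (two-sided Fisher's exact test, adjusted p = 0.751), and the other 4 comparisons had adjusted p of 0.751 or above.

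At 1 kb, a distance chosen after the values were seen, neighbours were most frequent around Ibf2-alone regions. Another region lay within 1 kb of 4 of 79 regions with CP190 and Ibf2 (5.06%, 1.40 to 12.5), 6 of 74 with both Ibf proteins (8.11%, 3.03 to 16.8) and 12 of 68 with Ibf2 alone (17.6%, 9.47 to 28.8), against 5.82% of all regions on the arms. For members as a whole the share was 9.91% (22 of 222), against 5.59% for complete regions (24 of 429) and 5.13% for CP190 alone (60 of 1170). Peaks of 1 list were never closer than 300 bp, so a region that holds CP190 cannot have a further CP190 peak right beside its own, while an Ibf2-alone region can. The calls that define the classes therefore also limit their neighbours at this distance, and the shares are given as a description. With only neighbours 300 bp to 1 kb away counted, also chosen after the values were seen, the shares were 3 of 79, 5 of 74 and 10 of 68 in the same order of classes. Over all regions on the arms that share was 5.38% (98 of 1821). It was 23 of 429 for complete regions and 57 of 1170 for CP190 alone. Regions that neighbour each other are both counted, so these counts are not independent.

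**Figure D5:**
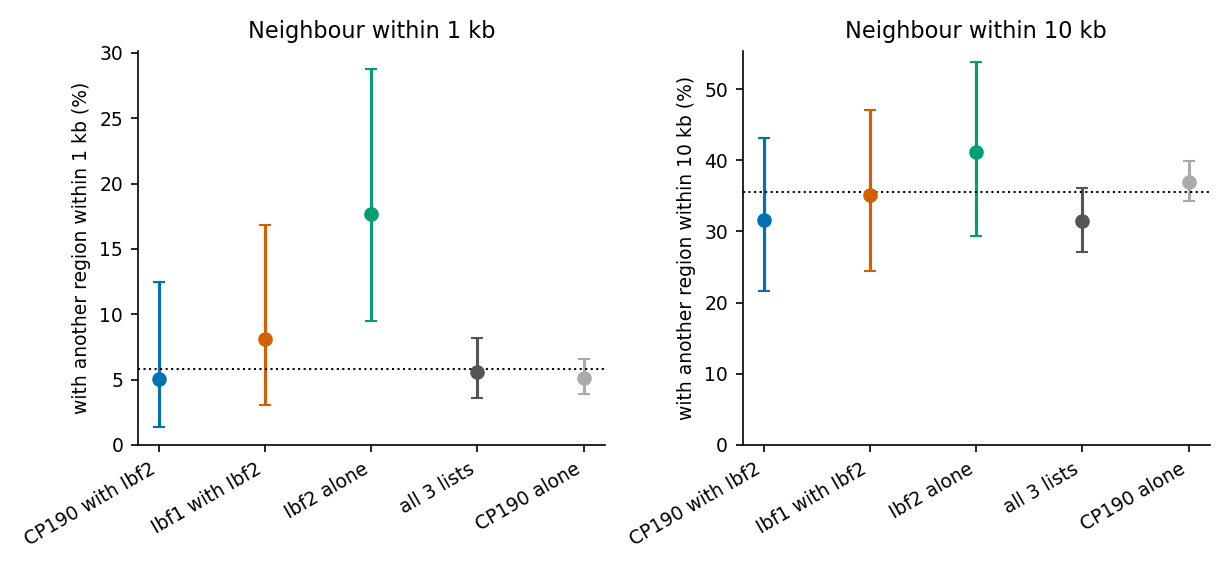
Percentage of regions on the autosome arms with another merged region within 1 kb (left) or 10 kb (right), by class; points are shares, bars 95% exact intervals and the dotted line the share over all regions on the arms. Ibf2 alone stands at 17.6% on the left, above the 5.82% of all regions, while every class on the right lies between 31.5% and 41.2%.

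Of the 12 Ibf2-alone regions with such a neighbour, 10 had a CP190 peak within 1 kb (14.7% of 68, 7.28 to 25.4). The neighbouring CP190 peak was in a complete region in 4 cases, alone in 5 and with Ibf2 in 1. The 10 Ibf2-alone peaks near CP190 had a median width of 56 bp (32 to 143.5) and none was over 155 bp. The other 58 had a median of 106 bp (55.2 to 174.5) and reached 605 bp. An Ibf2 peak wide enough to share a base with the CP190 peak beside it would not be in this class. The rule therefore limits widths near CP190. The 1 kb cut was chosen after the values were seen, the quartile ranges overlapped, and the difference was not tested.

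On the autosome arms, 5 pairs of members lay within 10 kb of each other with no other region between them, of 357 such pairs of regions of any class. At 1 kb there were 3 of 53, each including an Ibf2-alone region. These were 1.40% of the pairs at 10 kb and 5.66% at 1 kb. Members were 12.2% of the 1821 regions on the arms. That is a share of single regions and not the share expected of pairs in which both are members. An expected share of pairs was not computed, and the pair counts were not tested. On 3R a region with CP190 and Ibf2 at 16773707 to 16774093 (CP190 387 bp, Ibf2 183 bp) lay 260 bp from an Ibf2-alone peak of 154 bp. At the start of 3R, at 55278 to 55492, a region with both Ibf proteins lay 325 bp from an Ibf2-alone peak of 83 bp. Another such region, on 2L from 3803920 to 3804100, lay 965 bp from an Ibf2-alone peak of 96 bp. In all 3 pairs the Ibf2-alone peak was the narrower of the Ibf2 peaks.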

How the data were processed

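Peaks were called by the authors for each of 3 immunoprecipitated libraries against 1 Input library, per the series' design text. The submitters' processing notes name the build dm3 and the tool CASAVA 1.8.2. Which aligner and caller were used, and with what thresholds, is not given in the sources used here. The deposited lists hold the chromosome, start and end of every peak, without score, height or p-value, so read depth is unknown and precision follows from the number of regions. Within a list the smallest gap between peaks was 300 bp. Intervals were read as closed, and those sharing 1 bp were merged. Gaps run from edge to edge. Distances were measured on 2L, 2R, 3L, 3R and 4 unless a contig is named. Shares were compared by two-sided Fisher's exact tests, with Benjamini-Hochberg adjustment within each of 4 families of 5 comparisons. In the tests of neighbours at any distance, both regions of a neighbouring pair could be counted, so those counts were not independent. Intervals of medians come from binomial order statistics. Merging and testing were tested on simulated data.

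The named regions were the widest, the closest to a missing partner or to another member, those with the least overlap, every Ibf1-alone region, and those on chromosomes 4 and M, with 2 peaks of a list or with the wider Ibf1 peak, these last 3 kinds chosen after their values were seen. Members, lists and tests were chosen with earlier results of these data known. Alternatives were other joining rules, a minimum width of 50 bp, other neighbour distances, midpoint distances and the assembled arms alone. The software was matplotlib 3.10.9, statsmodels 0.14.6, SciPy 1.17.1, pandas 2.3.3, NumPy 2.4.6 and Python 3.11.15. Sequence at the peaks was not analysed here.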

Additional observations from a re-analysis of the deposited data

Results flagged for a closer look

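Members lay outside the assembled arms more often than regions of CP190 alone (16 of 238 against 17 of 1187, odds ratio 4.95), a difference between classes of region that passed Fisher's exact test. Leaving out the 5 Ibf1-alone regions gave an odds ratio of 3.73 (adjusted p = 0.00549), and leaving out the mitochondrial genome gave 4.33 (adjusted p = 0.000764, Fisher's exact test for both, both alternatives chosen after seeing the data). Complete regions had a share of 7.54% outside the arms (35 of 464). Members were not told apart from them (odds ratio 0.884), so the excess was not shown to be particular to regions lacking a partner.

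Members also lay on chromosome 4 more often than regions of CP190 alone (6 of 222 against 3 of 1170, odds ratio 10.8), again a difference between classes that passed the test. It rests on 9 regions. Complete regions had a share of 1.86% (8 of 429), and no difference of members from them was resolved (odds ratio 1.46).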

How the results depend on the processing

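Each antibody had 1 library and the lists hold no height, so neither the spread between libraries nor the signal behind a missing call can be given. No paired analysis was possible because no group has a replicate. Both differences from CP190 alone (outside the arms and on chromosome 4) passed the test under every joining rule and with peaks under 50 bp left out. Leaving out those peaks raised the median Ibf2 width to 143 bp with CP190, 144 bp alone and 254 bp with Ibf1 and no CP190. Leaving out narrow peaks can by itself raise a median, and it moves regions between classes. The subclasses then held 87, 69 and 71 regions in the same order, against 83, 69 and 81. Members numbered between 222 (arms only) and 242 (an overlap of 50% of the shorter peak), against 238.

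Odds ratios that changed direction came from differences not resolved in either setting, except 1 at 1 kb. With peaks joined up to 500 bp apart, CP190 with Ibf2 gave 0.865 against both Ibf proteins for chromosome 4 and 1.02 against Ibf2 alone for a CP190 peak within 10 kb. With an overlap of 50% of the shorter peak, members gave 1.01 against CP190 alone for any neighbour. Without peaks under 50 bp, CP190 with Ibf2 gave 1.02 against both Ibf proteins outside the arms and 1.09 against Ibf2 alone for a CP190 peak within 10 kb. At 5 kb, members gave 1.28 (any neighbour) and 1.23 (CP190) against CP190 alone. At 20 kb, CP190 with Ibf2 gave 1.08 against Ibf2 alone and 1.11 against both Ibf proteins for any neighbour, and 1.22 against Ibf2 alone for CP190. At 1 kb, added after seeing the data, members gave 2.03 (adjusted p = 0.0406, Fisher's exact test) for any neighbour and 1.71 for CP190 against CP190 alone. At that distance CP190 with Ibf2 gave 0.692 against both Ibf proteins for CP190, and 0.251 against Ibf2 alone for any neighbour, which now passed the test. Peaks of 1 list are never closer than 300 bp, which limits the close neighbours a class can have. With only neighbours 300 bp to 1 kb away counted, also added after seeing the data, that ratio was 0.231 and did not pass (adjusted p = 0.181, Fisher's exact test). There, members gave 1.72 for any neighbour (adjusted p = 0.181, Fisher's exact test) and 1.29 for CP190 against CP190 alone, and CP190 with Ibf2 gave 0.935 against both Ibf proteins for CP190. The cause was not tested. Without peaks under 50 bp, no region with both Ibf proteins and no CP190 remained on chromosome 4, so the odds ratio of CP190 with Ibf2 to them had no finite value.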

Other observations

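Along the 4 large arms, each split into 3 equal parts of its called span from centromere to telomere, members numbered 78, 72 and 66. The part next to the centromere held 36.1% of members (29.7 to 42.9), 36.3% of complete regions (31.7 to 41.1) and 30.5% of CP190-alone regions (27.9 to 33.2), with no test made. By subclass that part held 31 of 77 regions with CP190 and Ibf2 (40.3%), 26 of 73 with both Ibf proteins (35.6%) and 21 of 65 with Ibf2 alone (32.3%), and the intervals of these 3 shares overlapped. The region nearest to a member was of CP190 alone for 50 of 79 regions with CP190 and Ibf2, 42 of 74 with both Ibf proteins and 41 of 68 with Ibf2 alone (63.3%, 56.8% and 60.3%). The same share was 59.2% for complete regions, 68.2% for CP190 alone and 65.1% over all regions on the arms. The nearest region was complete for 25, 18 and 19 of the members in the same order (31.6%, 24.3% and 27.9%). That share was 22.3% over all regions on the arms, 25.4% for complete regions and 20.1% for CP190 alone. None of these shares was tested.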
